A study of Mus musculus with 3 samples.

Results

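Splenic natural killer (NK) cells were set against splenic B cells, taken as the reference contrast of the series. Both populations came from wild-type (WT) C57/BL6 mice 8 weeks of age, with no treatment or transgene given in the labels, and each was hybridised to 1 array. The remaining array of the series, of natural killer B cells from mice of the same strain and age, enters no value here. The genes compared are all 24203 that carry a gene name on the array, out of 24203 in the series, measured by 41886 transcripts, and transcripts of the same gene name were averaged on the log2 scale. With 1 array a population no test could be made and no p-value is given, and precision is limited by the number of arrays. How many mice stand behind an array is not stated in the labels. The note on sorting that the samples carry speaks of LT-HSCs, long-term hematopoietic stem cells, so the populations were taken from the titles and cell type fields. The markers used for gating are not stated either.

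NK cells are innate lymphocytes that kill infected or transformed cells without prior sensitisation. They secrete perforin and granzymes from cytotoxic granules, release chemokines and interferon gamma, and read MHC class I on other cells through inhibitory lectin-like receptors. B cells carry an immunoglobulin antigen receptor that signals through the CD79 chains, and they present peptides on MHC class II to helper T cells. Both arise from lymphoid progenitors, and Pax5 and Ebf1 on the B side and Eomes, T-bet and Id2 on the NK side are known to maintain the separate programmes.

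The promoters of genes at the extremes of the contrast are shown first. These genes were picked by the size of their difference. Windows reach from 250 bases before to 50 bases after the annotated start, are taken from RefSeq on build GRCm38.p6, and are written 5′ to 3′ on the strand of the gene. Of the 40 genes with the largest and smallest differences, 25 had a window in the table. Capitals mark letter matches to 10 motifs searched on both strands: ATTTGCA, the octamer core of POU2F factors; CCCNNGGG, the half-sites of EBF; AGGAAGT for ETS factors and PU.1; CAGGTG, an E-box; AGGTGTG for T-box factors, which shares letters with the E-box; TGTGGTT for RUNX; TGANTCA for AP-1; GGGANTTCC for NF-kappaB; TGGAAAA for NFAT; and TGACGTC, the core of the cAMP response element. A match is a description of the letters and not a binding site.

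The first set is 3 genes of the killing machinery, all higher in NK cells. Gzma encodes the serine protease granzyme A (chr13:113100932-113101231, minus strand), Gzmb encodes granzyme B (chr14:56262285-56262584, minus strand), and Prf1 encodes the pore-forming protein perforin (chr10:61297586-61297885, plus strand).
Gzma: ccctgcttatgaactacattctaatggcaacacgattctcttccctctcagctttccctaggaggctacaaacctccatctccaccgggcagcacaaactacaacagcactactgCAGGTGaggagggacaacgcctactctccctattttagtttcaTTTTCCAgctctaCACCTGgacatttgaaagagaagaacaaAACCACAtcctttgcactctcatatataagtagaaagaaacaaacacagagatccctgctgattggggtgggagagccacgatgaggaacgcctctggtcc
Gzmb: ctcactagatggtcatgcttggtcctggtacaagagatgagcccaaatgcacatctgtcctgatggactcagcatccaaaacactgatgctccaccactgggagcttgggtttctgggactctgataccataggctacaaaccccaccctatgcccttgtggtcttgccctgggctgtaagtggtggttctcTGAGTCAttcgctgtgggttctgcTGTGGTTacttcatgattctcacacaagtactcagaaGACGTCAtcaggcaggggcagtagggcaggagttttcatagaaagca
Prf1: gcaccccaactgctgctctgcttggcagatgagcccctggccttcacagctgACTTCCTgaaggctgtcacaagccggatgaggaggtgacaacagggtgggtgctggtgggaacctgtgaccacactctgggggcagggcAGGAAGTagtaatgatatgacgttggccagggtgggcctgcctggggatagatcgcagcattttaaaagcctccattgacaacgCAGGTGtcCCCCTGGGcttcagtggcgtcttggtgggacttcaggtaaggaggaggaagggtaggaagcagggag
The capitals in Gzma are an E-box, a reversed NFAT match, a reversed E-box and a reversed RUNX match, in that order. In Gzmb they are an AP-1 match, a RUNX match and a reversed cAMP response element core just past the start. In Prf1 they are a reversed and a forward ETS match, an E-box and EBF half-sites. The RUNX matches of Gzma and Gzmb end at positions -45 and -28 from the start.

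The other set is 4 genes of antigen receptor signalling and antigen presentation, all lower in NK cells. Cd79a encodes a signalling chain of the B cell receptor (chr7:24897247-24897546, plus strand), Pou2af1 a coactivator of octamer-binding factors (chr9:51213440-51213739, plus strand), Cd22 an inhibitory sialic acid receptor (chr7:30878979-30879278, minus strand) and H2-Aa the alpha chain of MHC class II I-A (chr17:34287774-34288073, minus strand).
Cd79a: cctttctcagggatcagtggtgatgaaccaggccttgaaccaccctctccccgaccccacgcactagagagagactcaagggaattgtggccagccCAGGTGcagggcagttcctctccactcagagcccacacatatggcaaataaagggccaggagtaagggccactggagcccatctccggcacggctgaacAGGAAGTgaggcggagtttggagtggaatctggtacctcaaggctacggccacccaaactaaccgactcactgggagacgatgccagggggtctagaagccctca
Pou2af1: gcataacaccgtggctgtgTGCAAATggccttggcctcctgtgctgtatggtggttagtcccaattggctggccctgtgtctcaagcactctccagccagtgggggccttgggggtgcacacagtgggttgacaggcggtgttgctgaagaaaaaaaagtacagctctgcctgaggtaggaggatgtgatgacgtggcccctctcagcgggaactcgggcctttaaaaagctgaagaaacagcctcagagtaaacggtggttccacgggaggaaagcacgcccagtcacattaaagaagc
Cd22: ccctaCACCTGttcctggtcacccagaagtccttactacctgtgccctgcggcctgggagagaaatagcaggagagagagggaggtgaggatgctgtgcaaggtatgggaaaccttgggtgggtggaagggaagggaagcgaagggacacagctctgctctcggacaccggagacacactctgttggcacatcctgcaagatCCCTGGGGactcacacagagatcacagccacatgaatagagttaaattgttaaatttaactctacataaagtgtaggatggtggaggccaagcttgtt
H2-Aa: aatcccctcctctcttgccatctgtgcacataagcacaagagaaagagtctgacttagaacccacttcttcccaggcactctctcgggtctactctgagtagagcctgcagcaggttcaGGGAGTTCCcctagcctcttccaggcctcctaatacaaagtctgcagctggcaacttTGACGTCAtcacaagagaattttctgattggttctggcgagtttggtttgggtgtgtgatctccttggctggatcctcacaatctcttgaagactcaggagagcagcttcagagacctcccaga
The capitals are an E-box and an ETS match in Cd79a and a reversed octamer core in Pou2af1. Cd22 holds a reversed E-box and EBF half-sites, and H2-Aa an NF-kappaB match and a cAMP response element core. The last of these reads as the same letters on both strands, so it was matched in each orientation, from position -74 to -67.

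Array values are RMA intensities on a linear scale. Genes of olfactory and vomeronasal receptors, 843 in number, set the detection level of each array at their 95th percentile, 152 for B and 143 for NK. The median intensity was 64.3 and 64.8, the 5000 random control probes averaged 39.6 and 38.7, and 5569 and 5842 genes lay above the level. At least 1 array was above its level for 7094 genes, which are called measured here, and both were for 4317. Values under a level were set to it, so any fold from them can only be a minimum and is written "at least". Genes were called higher or lower in NK at a 2-fold difference. The receptor genes give a gauge of noise for dim genes: the standard deviation of their log2 differences before any level was 0.68. After the level, 13 of the 843 (1.54%) were themselves called at 2-fold. The level was set from these same genes, so most of them lie under it and cannot be called. This share is therefore low by construction and is no error rate for the other genes. Few receptor genes are measured, and the share called among those is higher. Genes with several transcripts give another gauge of noise. Of 583 genes called on their first transcript, the next had the same direction in 438 (75.1%) and was itself called the same way in 191 (32.8%) and the opposite way in 9.

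In all, 1221 of 24203 genes were called (5.04%), with 534 higher in NK (2.21%) and 687 lower (2.84%). Among the 7094 measured genes these shares are 7.53% and 9.68%, together 17.2%, and among the 4317 above both levels they are 5.93% and 10.6%, together 16.6%. These shares are the background for every count of called list members below. Over the measured genes, the median log2 difference was -0.10. The split moved with scaling. The median over genes above both levels was -0.17, and raising the NK array by that amount gave 693 higher and 472 lower, so that higher genes made up 59.5% of calls in place of 43.7%, while quantile normalization gave 615 and 540 (53.2%). No gene was called in opposite directions by the main scaling and either of these. For 278 of the higher and 228 of the lower genes the fold is a bound. At 4-fold or more, 126 genes were higher (0.521% of all) and 123 lower (0.508%), together 1.03%. At 8-fold or more, 37 genes were higher and 48 lower. In the brightest class, 200 measured genes over 4000 on the brighter array, 23 were higher (11.5%) and 48 lower (24%), whereas between 250 and 500 the counts were 225 and 264 of 2137.

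**Figure D1:**
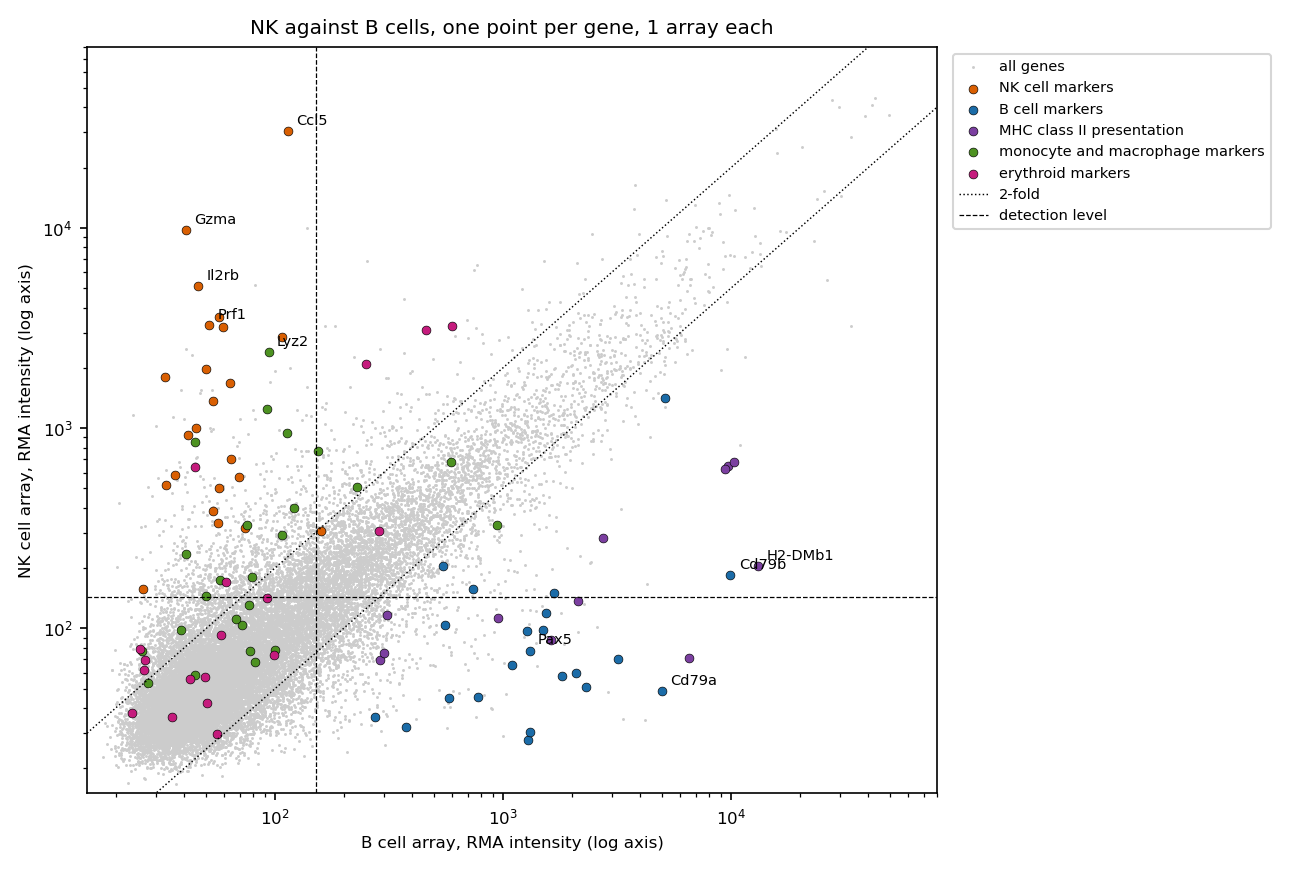
Intensity of each gene on the B cell array (x axis) and the NK cell array (y axis), both logarithmic, 1 array each. Dotted lines mark 2-fold, dashed lines the detection levels of 152 and 143, and colours mark 5 gene lists. NK cell markers stand at the upper left with Ccl5 at 114 and 30430, and B cell markers and MHC class II genes at the lower right with H2-DMb1 at 13170 and 205.

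Chemokines, granule proteins and receptor chains were among the genes highest above B in NK cells. Ccl5 (MM9 chr11:83339280-83344003), a chemokine that draws T cells and monocytes, read 114 on the B array and 30430 on the NK array and was at least 201-fold higher. Ccl3 (chr11:83461619-83462804), another inflammatory chemokine, read 139 and 9932, at least 65.5-fold higher. Gzma (chr13:113884034-113891189) read 40.7 and 9758, at least 64.3-fold higher. All of these were under the detection level on the B array. Ccl4, a close relative of Ccl3 on the same stretch of chromosome 11, read 100.4 and 1930 and was at least 12.7-fold higher. Il2rb, the receptor chain through which interleukin 2 and interleukin 15 signal, read 46.0 and 5119 and was at least 33.8-fold higher.

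Of 22 cytotoxic granule genes on the array, 8 were higher in NK, none was lower, and 8 were under both levels. The median log2 difference of the 14 measured was 1.40, against -0.10 over all measured genes. Nkg7, a membrane protein needed for granule release, read 56.7 and 3584. Prf1 read 51.5 and 3275, at least 21.6-fold higher, and Gzmb read 63.7 and 1684, at least 11.1-fold higher. Cst7, an inhibitor of granule cathepsins, read 172 and 778, a 4.52-fold difference. Not every granule gene separated the populations: Srgn, the proteoglycan core of granules, read 1121 and 1163, and Lamp1, the lysosomal membrane protein that marks degranulation, read 496 and 481. The granzyme genes Gzmc, Gzme, Gzmf, Gzmg, Gzmk and Gzmm were under the level on both arrays.

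The NK cell marker list held 23 genes on the array. Of these 21 were higher in NK (91.3%) and none lower, with a median log2 difference of 2.73 and a summed intensity of 1392 on the B array and 71326 on the NK array. All 23 were above the level on the NK array and 1 on the B array. Klrd1, the partner chain of NKG2 receptors, read 45.2 and 1003 and was higher on all 3 of its transcripts. Klrb1c, which encodes NK1.1, read 41.7 and 922 and was likewise higher on all 3. The exceptions were Ncr1, the activating receptor NKp46, at 159 and 308, and Klrc2, an activating NKG2 chain, at 26.4 and 157. Ncr1 lay just short of 2-fold (1.94-fold) and Klrc2 only just above the NK level. In these bulk samples, fewer cells of a type and less RNA per cell cannot be told apart.

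The B cell marker list went the opposite way. Of 22 genes on the array, none was higher and 21 were lower in NK (95.5%), with a median log2 difference of -3.19 and sums of 44326 on the B array and 3174 on the NK array. All 22 were above the level on the B array and 5 on the NK array. Cd79b (MM9 chr11:106172654-106175843), the other signalling chain of the B cell receptor, read 9943 and 184, 53.9-fold lower. Cd79a read 4977 and 48.5, at least 34.9-fold lower. The exception was Vpreb3, a protein of B cell receptor assembly, which read 274 and 36.2, only 1.92-fold above the level of the NK array.

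All 12 MHC class II genes on the array were lower in NK, with a median log2 difference of -3.71 and sums of 57495 and 3101. Without the detection level the median was -3.92, beside -4.00 for the B cell markers. With the NK array raised to equal medians 9 of them passed, and after quantile normalization 11. H2-DMb1 (MM9 chr17:34290195-34297168), a chain of the H2-M peptide exchanger, read 13170 and 205, 64.2-fold lower. Its close paralog H2-DMb2 read 6514 and 71.3, and the annotated spans of these paralogs overlap on the array, so their signals may not be separate. H2-Ab1, H2-Eb1 and the invariant chain Cd74 read 9745, 9416 and 10277 on the B array and 644, 622 and 679 on the NK array. These NK values are about the same fold below B for each, 15.1, 15.2 and 15.1, and above the NK level. Ciita, the master transactivator of class II genes, read 954 and 113, at least 6.68-fold lower and lower on all 5 of its transcripts. Ifi30, a thiol reductase of the class II pathway, read 2756 and 281, 9.80-fold lower. Rfx5, part of the complex that recruits CIITA to class II promoters, read 310 and 116.

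Of 16 genes on the array 15 were within 2-fold and only Calr, the chaperone calreticulin, was called, at 6389 and 2342. The median log2 difference was -0.13, and it turned to 0.04 with equal medians and 0.01 after quantile normalization. B2m, the light chain of class I, read 6405 and 8602, H2-D1 read 10465 and 12317, and H2-K1 read 2364 and 3688. Both populations were therefore bright for class I heavy and light chains, while 12 of 12 class II genes differed.

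**Figure D2:**
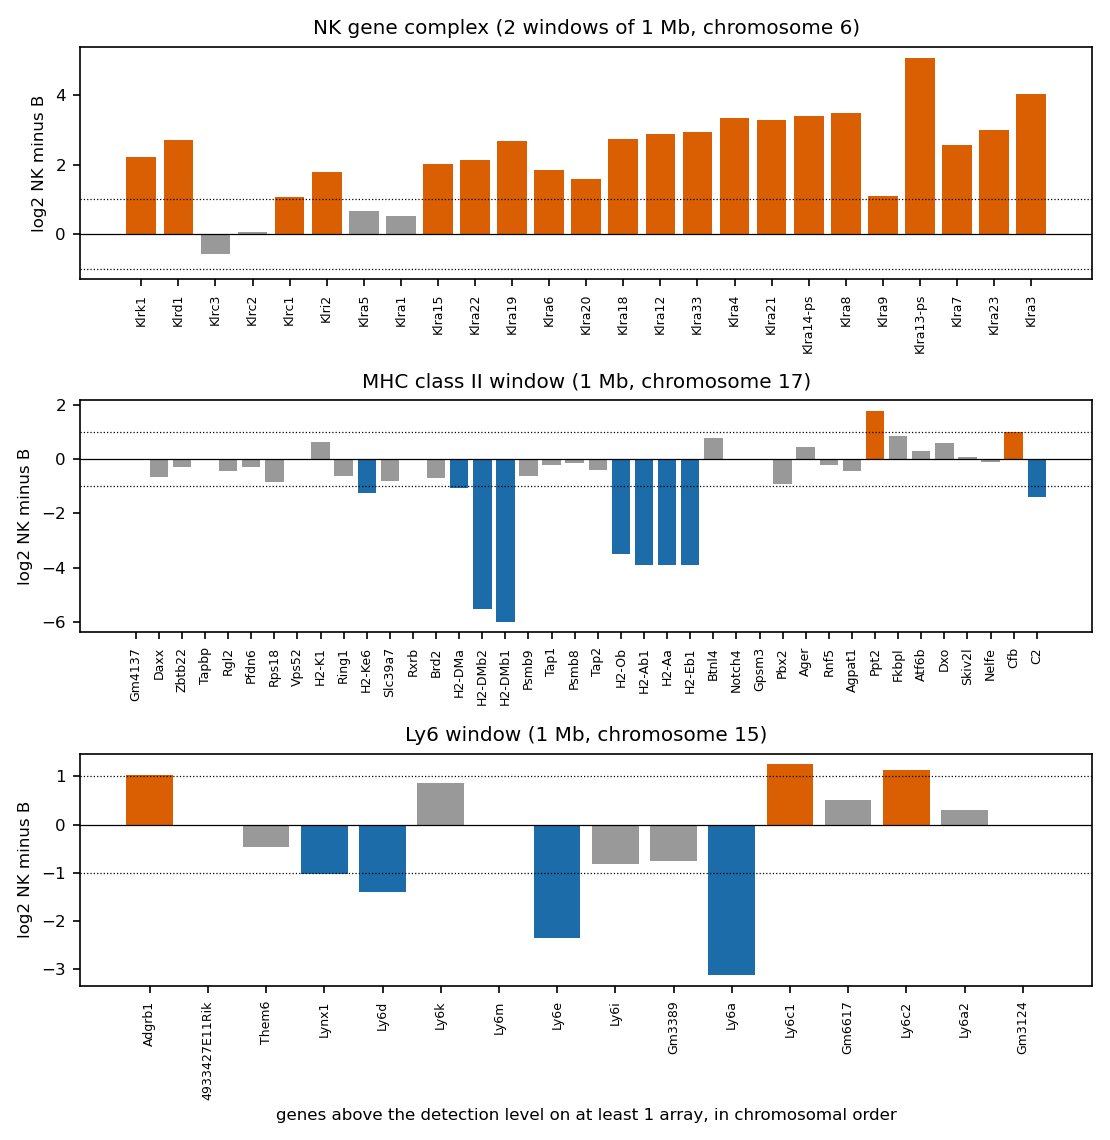
Log2 intensity of NK minus B for measured genes in chromosomal order in 3 regions, with called genes coloured and dotted lines at 2-fold. The lectin-like receptor genes of chromosome 6 are higher in NK, the class II genes of chromosome 17 are lower while Tap1, Tap2, Psmb8 and Psmb9 between them are not called, and the Ly6 region of chromosome 15 holds genes called in both directions.

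Called genes lay side by side in a few places on build MM9, read in windows of 1 Mb. Of 2401 windows, 25 held at least 3 higher genes and 38 at least 3 lower ones. Chromosome 6 from 129000001 to 131000000, the NK gene complex of lectin-like receptors, held 25 measured genes, of which 21 were higher and none lower. Klra13-ps, annotated as a pseudogene, read 81.5 and 5176 there, Klra3 (Ly49C) 40.9 and 2489, and Klra8 (Ly49H) 95.4 and 1693. The Klra genes are close paralogs: Klra20, Klra18, Klra12, Klra33 and Klra4 are placed with starts between 129993749 and 129994058, so the signal of any member is uncertain and the 21 are not separate observations.

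The class II window of chromosome 17, from 34000001 to 35000000, held 57 genes, 40 of them measured, with 9 lower and 2 higher. The class II genes H2-DMa, H2-DMb2, H2-DMb1, H2-Ob, H2-Ab1, H2-Aa and H2-Eb1 were lower, as were H2-Ke6 and the complement gene C2. Between H2-DMb1 and H2-Ob lie Psmb9, Tap1, Psmb8 and Tap2, which encode immunoproteasome subunits and the peptide transporter of the class I pathway. These read 1129.8 and 726, 315 and 273, 941 and 862, and 1248 and 950.5, in that order, and none was called. The higher genes of the window were Ppt2, a lysosomal thioesterase (52.0 and 521), and the complement factor gene Cfb (168 and 340.5).

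Immunoglobulin genes were lower in NK but not all near the level. In the kappa window of chromosome 6, from 70000001 to 71000000, 7 of 9 measured genes were lower, none was higher, and their annotated spans overlap up to base 70676960. Igkv4-59 read 33493 and 3221, 10.4-fold lower, and Igkv6-23 read 2172 and 230. Ighm, the heavy chain of IgM, read 10982 and 827, 13.3-fold lower, and Ighv14-2 read 3377 and 35.1, at least 23.6-fold lower. Thus Igkv4-59 and Ighm were bright in B and still above the level in NK, whereas Ighv14-2 was not. The 42 transcripts averaged under the name Igh read between 26.4 and 1538 (median 198) in B and between 30.2 and 576 (median 96.2) in NK, and 13 of them were lower and 3 higher.

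The Ly6 region of chromosome 15, from 74000001 to 75000000, held genes called in both directions. Ly6e read 11553 and 2255, Ly6a, which encodes Sca-1, read 1368 and 157, and Ly6d, a surface marker of B-committed progenitors, read 377 and 32.2. Ly6c1 read 109 and 362 and Ly6c2 read 229 and 506, both higher in NK. Ly6 genes are close paralogs too, and the probes may not separate them. The chemokine window of chromosome 11 held 7 measured genes, of which Ccl5, Ccl3 and Ccl4 were higher and none was lower.

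Signalling molecules and a few surface and nuclear proteins were read as pairs of relatives, of which 1 was put on the NK and T side and the other on the B side from general knowledge of their use. Of 23 such pairs with both members on the array, the NK-side member was higher in 12 and lower in none. The B-side member was lower in 10 and higher in none, and both held in 7. Beside these stand 2.21% higher and 2.84% lower of all genes, and 7.53% and 9.68% of measured ones. Genes were chosen with earlier results of these data known, so the counts are no independent support for the sides. The kinases show the exchange. The Src family kinases Lck (316 and 1350.1) and Fyn (366 and 2359) were higher in NK by 4.27-fold and 6.44-fold, while Blk (1292 and 27.6) was at least 9.05-fold lower and Lyn (926 and 392) 2.36-fold lower. The Syk family behaved the same way, with Zap70 at 47.5 and 324 and Syk at 1398 and 449.75. Among Tec kinases Txk read 47.8 and 427 and Btk, the kinase lost in X-linked agammaglobulinemia, read 1548 and 119.7.

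Adaptors and receptor chains followed. Tyrobp (DAP12), which couples activating NK receptors to kinases, read 108 and 2858, at least 18.8-fold higher, and Fcer1g, which couples Fc receptors, read 33.0 and 1793, at least 11.8-fold higher. Hcst (DAP10), the adaptor of NKG2D, read 118 and 362. Dok2 read 37.8 and 680 and Dok3 read 589 and 73.3, a pair of inhibitory adaptors on opposite sides. Blnk, the adaptor of the B cell receptor, read 776 and 45.4, but its T cell relative Lcp2 was under both levels. Other pairs did not separate: Plcg2 read 572 and 443 with Plcg1 under both levels, Nfatc1 read 413 and 306 with Nfatc2 under both, and Lat2 read 456 and 346 beside Lat at 96.0 and 267.

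**Figure D3:**
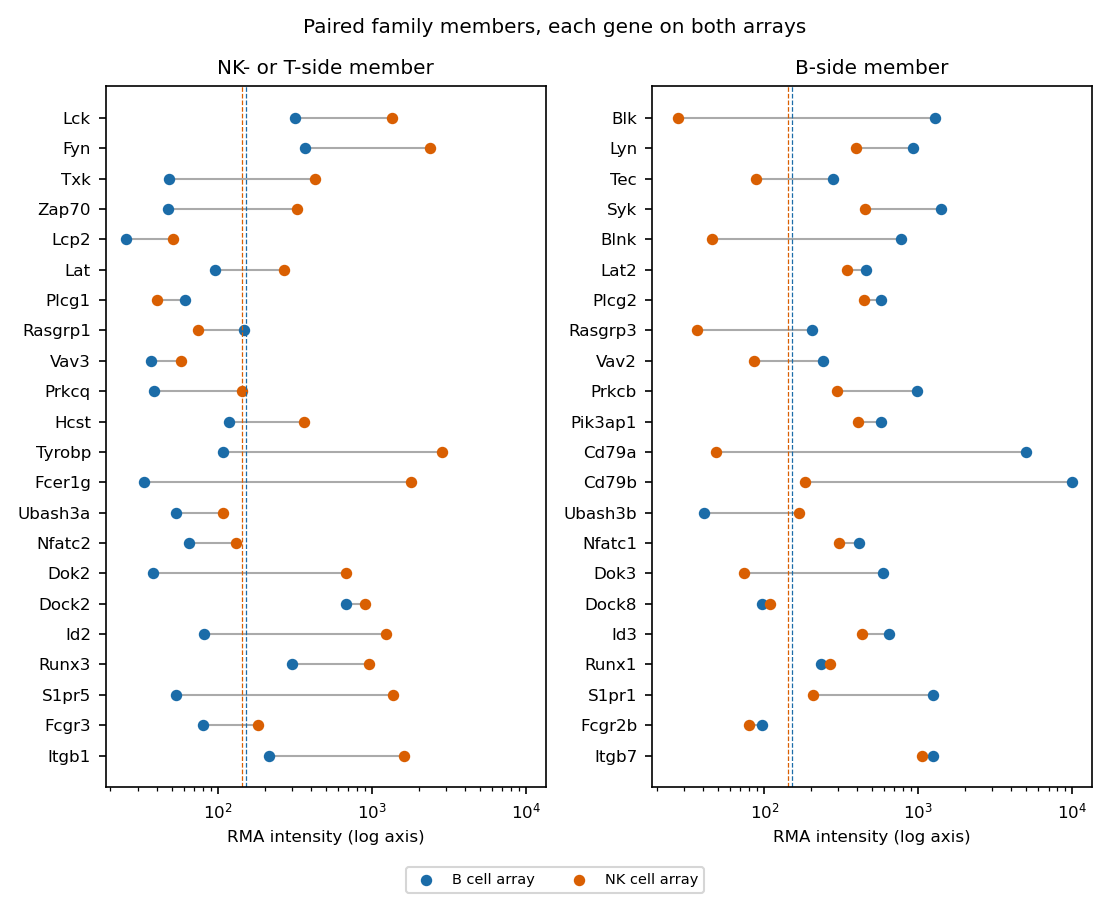
Intensity on the B cell array (blue) and NK cell array (orange) for 22 of the pairs of related genes, on logarithmic axes, with dashed lines at the detection levels. The left panel holds the member put on the NK or T side and the right panel the member put on the B side. Lck, Fyn, Tyrobp, Fcer1g and Dok2 lie further right in orange, and Blk, Syk, Cd79a, Cd79b and Dok3 further right in blue.

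Of 17 NK and T lineage factors on the array, 6 were higher and none lower (median of the measured 0.79). Id2, an inhibitor of E proteins that NK cells need, read 80.4 and 1234, Tcf7, which encodes TCF1, read 132 and 1103, and Bhlhe40 read 313 and 1774. Eomes read 36.5 and 583, at least 3.85-fold higher, and Runx3 read 301 and 956. Ets1, which both lineages use, read 583 and 465, and Gata3 and Tox were under both levels. Of 19 B lineage factors, 11 were lower and none higher (median -1.46), although with equal medians 10 were. Pou2af1 read 2308 and 51.1, at least 16.2-fold lower, Pax5 read 1310.3 and 77.4, at least 9.18-fold lower, and Pou2f2, which encodes Oct-2, read 1402 and 184 and was lower on all 5 transcripts. Irf8 (1222 and 1564), Id3 (649 and 434) and Foxo1 (1795 and 1035) were within 2-fold.

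Receptors for positioning split by subtype. Among sphingosine receptors, S1pr5, which takes NK cells out of bone marrow and lymph nodes, read 53.5 and 1368, at least 9.02-fold higher, and S1pr1, which serves lymphocyte egress, read 1253 and 208, 6.02-fold lower. Cxcr3, a receptor for inflammatory chemokines, read 27.7 and 509. The follicle-homing receptor gene Cxcr5 read 737 and 157, and Ccr7, which guides cells to the T cell zone, read 899 and 39.6, at least 6.29-fold lower. Over the 19 migration receptors 3 were higher and 5 lower, and Cxcr4 read 521 and 470.1. The median of the measured ones, -0.10, turned to 0.07 with equal medians. Ccr6, among the lower ones at 362 and 156, is uncertain, because its transcripts were called in opposite directions.

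Of 19 integrin and adhesion genes, 15 were measured, 7 were higher in NK and none lower, beside 7.53% higher and 9.68% lower of all measured genes. Itgb2, the beta chain of LFA-1, read 773 and 6493 (8.40-fold), Selplg, the P-selectin ligand, read 747 and 6132 (8.21-fold), and Itgb1 read 213 and 1609 (7.56-fold). Itgal, the alpha chain that pairs with Itgb2, read 123 and 479, and the alpha chains Itga2, Itgax and Itgam were higher as well, at 386, 364 and 348 on the NK array and under the level in B. Itgax and Itgam are also used by myeloid cells, whose markers were higher on the NK array as given further on, and the part of those cells in these values was not tested. Itgb7, which pairs with alpha chains for gut homing, read 1244 and 1060.5.

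Of 24 cytokine receptor genes on the array, 15 were measured, 2 were higher and 1 was lower, and 4 were higher with equal medians and 3 after quantile normalization. The other 12 measured were not called, and 17.2% of all measured genes were called, so these counts do not set the list apart. Il2rb and Ifngr1 were the higher ones. The common gamma chain Il2rg read 3873 and 7304, just under 2-fold. The chains of the interferon gamma receptor went opposite ways: Ifngr1 read 227 and 1123, 4.94-fold higher, and Ifngr2 read 388 and 74.2, at least 2.72-fold lower. Each of these rests on 1 transcript. Of cytokines and chemokines, 5 of 20 were higher, Ccl5, Ccl3, Ccl4, Ifng and Xcl1, and 2 were lower, Lta and Ltb, which encode the lymphotoxin chains that organise lymphoid tissue. Ifng, interferon gamma itself, read 38.6 and 1554, at least 10.2-fold higher, and Ltb read 1314 and 391, 3.36-fold lower. Tnf and Il10 were under both levels.

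TNF family genes were called in both directions, 3 higher and 3 lower of 23, of which 13 were measured. The shares over all measured genes were 7.53% higher and 9.68% lower. Tnfrsf1a, the death-domain receptor for TNF, read 45.1 and 712, Fasl, which triggers apoptosis through FAS, read 35.4 and 474, and Tnfrsf13c, the receptor for the B cell survival factor BAFF, read 1668 and 151, 11.04-fold lower. Inhibitory receptors likewise differed by member, with 6 higher and 4 lower of 20. Klra3 and Klrg1 (49.7 and 1971) led the higher ones, and Cd22 (1813 and 58.2) and Siglecg (1801 and 119.9), sialic acid receptors that dampen B cell receptor signals, led the lower ones. Fc and complement receptors had 5 lower, among them Fcmr, the IgM receptor (2083 and 59.6), Cr2 (1317 and 30.3) and Fcer2a (1101 and 65.5), and 1 higher of 17.

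Toll-like receptors and their adaptors were read for innate sensing. Of 17 genes on the array, 9 were measured, 5 were lower in NK and none was higher, beside 9.68% lower and 7.53% higher of all measured genes. Ly86, which encodes MD-1, read 911 and 155, and its partner Cd180 read 604 and 48.4, at least 4.23-fold lower. Tlr6 read 825 and 46.2, Tlr1 read 641 and 47.7, and Unc93b1, which carries nucleic acid receptors to endosomes, read 1599 and 367. Myd88, the shared adaptor, read 871 and 697 and was not called, nor were Ticam1, Tlr2 and Irak1, and 8 of the 17 were under both levels.

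Lysosomal proteases were divided between the populations. Ctsw, a protease of cytotoxic lymphocytes, read 59.4 and 3184, at least 20.99-fold higher in NK, the aspartic protease gene Ctsd read 183 and 3238, 17.7-fold higher, and the cysteine protease gene Ctsb read 810 and 2944, 3.64-fold higher. In the other direction Ctsh read 1641 and 199, 8.25-fold lower, Ctsz read 2005 and 504, and Ctss, which trims the invariant chain, read 939 and 328, 2.86-fold lower. Of 22 genes 4 were higher and 3 lower, and the median of -0.15 turned to 0.02 with equal medians. The macrophage genes Cd68 and Lyz2 were higher on the NK array as well, so the part of macrophages in the values of Ctsd and Ctsb was not tested.

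**Figure D4:**
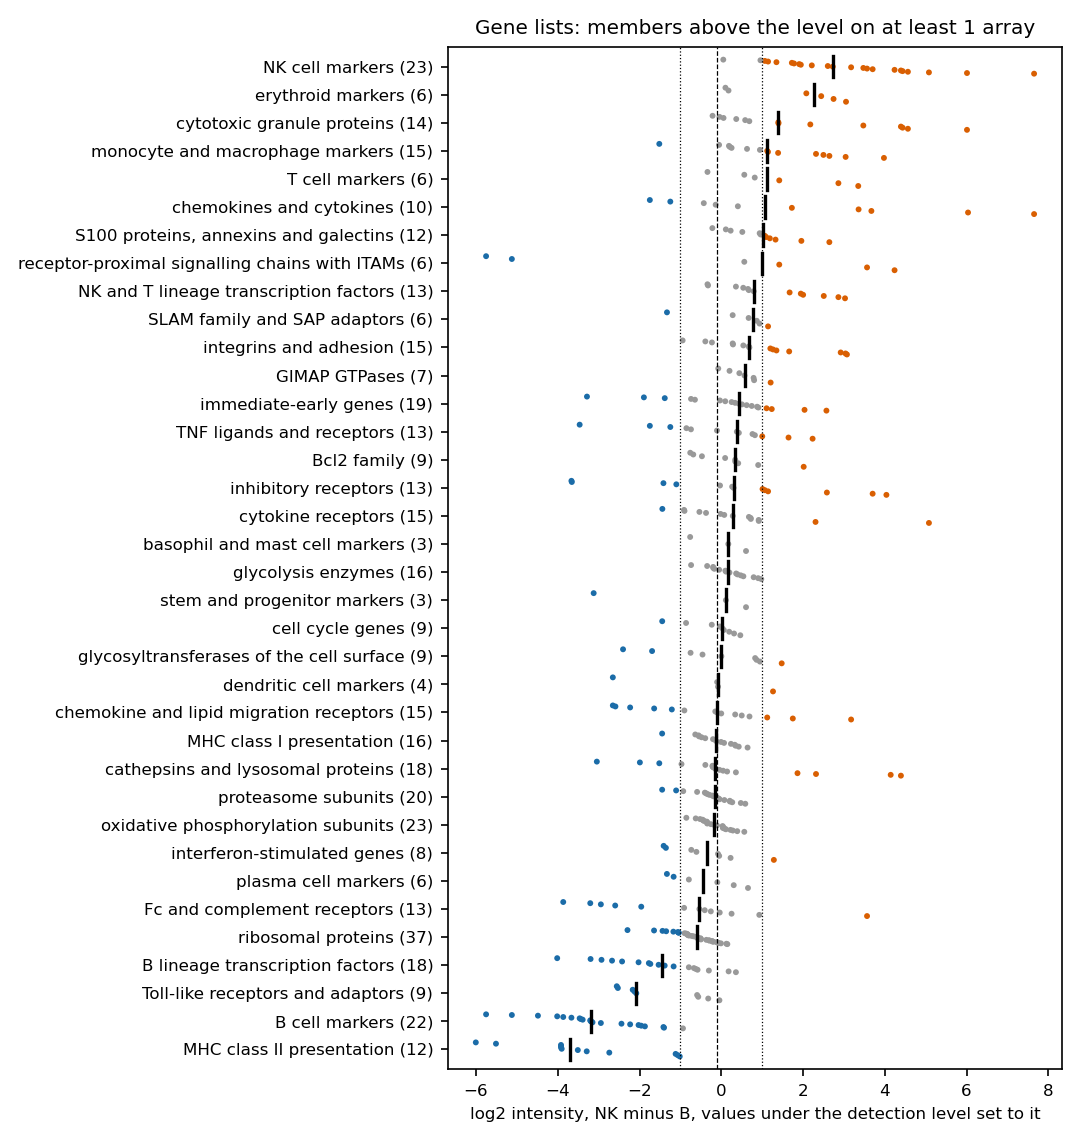
Log2 intensity of NK minus B for every measured member of each gene list with at least 3 measured members, ordered by median (black bars), with the number measured in brackets. Orange points are called higher and blue points lower in NK, dotted lines mark 2-fold and the dashed line the median of all measured genes, -0.10. NK cell markers are at the top with a median of 2.73 and MHC class II genes at the bottom with -3.71.

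Among genes of cytoskeleton and membrane trafficking, 6 of 19 S100, annexin and galectin genes were higher in NK and none lower. Lgals1, a galactose-binding lectin, read 112 and 946, at least 6.24-fold higher, S100a10 read 198 and 769, 3.88-fold higher, and S100a6 read 43.3 and 380.01. Fxyd5, a modulator of the sodium pump and of adhesion, was among the 20 genes highest above B at 166 and 3239.9, as were Sema4a (125 and 2603) and the motor protein gene Myo1f (116 and 1999). Of surface glycosylation enzymes, St6gal1, which makes the ligand of CD22, read 756 and 88.8, at least 5.29-fold lower, and St3gal4 read 124 and 422. Cd22 and the enzyme for its ligand were thus both lower in NK.

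Immediate-early genes, which respond to stimulation within minutes, were called in both directions, 4 higher and 3 lower of 21. Of these 19 were measured, and among all measured genes 7.53% were higher and 9.68% lower. The orphan receptors Nr4a2 (203 and 1208) and Nr4a1 (1213 and 4971) and the AP-1 gene Junb (3967 and 9326) were higher by 5.94-fold, 4.10-fold and 2.35-fold. Egr3 (1393 and 84.1) was at least 9.76-fold lower and Myc (1889 and 508) 3.72-fold lower. Fos (664 and 710) and Nfkbia (1084 and 1059) were nearly level. Gimap4, a GTPase of lymphocyte survival, read 570 and 1314, and the other 6 GIMAP genes were within 2-fold. Bcl2l1, which encodes the survival protein BCL-XL, read 91.2 and 612, at least 4.04-fold higher and higher on 4 of 5 transcripts, and no other of 17 BCL2 family genes was called, although with equal medians 2 were higher.

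Most genes of the array were under both levels, as 7094 of 24203 were measured. Among interferon-stimulated genes 15 of 23 were under both, which does not set them apart. Ifitm3 was higher (50.4 and 369), and Ifit3 (386 and 145) and Stat2 (765 and 299) were lower. Of 23 cell cycle genes 14 were under both levels, none was higher and Mcm6, a helicase subunit of DNA replication, was lower at 428 and 157. Mki67 read 128.8 and 148.

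Ribosomal protein genes were all above both levels, and of 37 none was higher and 8 were lower (21.6%), with a median log2 difference of -0.60. The share lower was like that of bright genes. It was 21.8%, 19.1% and 24% for measured genes at 1000 to 2000, 2000 to 4000 and over 4000 on the brighter array. The count was 5 with equal medians and 4 after quantile normalization, and the median then -0.42 and -0.36. Rpl35 read 4436 and 904, 4.91-fold lower, Rps20 read 2698 and 862, 3.13-fold lower, and Rps14 read 2178 and 2412. No gene of the 27 for oxidative phosphorylation or the 18 for glycolysis was called, though with either other scaling 2 glycolysis genes were higher. Of 21 proteasome genes 2 were lower (9.52%, beside 9.68% of all measured genes), Psma7 (1432 and 525) and Psma2 (350.5 and 163). Gapdh, a glycolytic enzyme, read 2418 and 2615, and Atp5b, the catalytic subunit of ATP synthase, read 2290 and 2339.

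The 15 brightest named genes within 2-fold were read next. Eef1a1, the elongation factor of translation, read 33494 and 28341, and Actg1 (gamma actin) read 8264 and 9534. The class I genes H2-Q7 (6879 and 8639) and H2-Q6 (5255 and 9126) were among the 15, as were Rps9, Rps6, Tpt1, Shisa5 and the keratin-associated protein gene Krtap5-1 (8206 and 9188). Across all 24203 genes the log2 intensities of both arrays correlated with a Pearson coefficient of 0.84, and across the 4317 above both levels with 0.83. These describe the arrays, since genes are not independent replicates.

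Markers of other cell types were read on both arrays. Monocyte and macrophage markers were higher in NK for 8 of 25 and lower for 1, and their summed intensity was 3404 on the B array and 10329 on the NK array. Lyz2, the lysozyme of myeloid cells, read 93.7 and 2388, at least 15.7-fold higher, and the complement genes C1qc, C1qb and C1qa read 1247, 947 and 856 on the NK array and were under the level in B. Csf1r, which defines mononuclear phagocytes, read 107 and 292 and was not called, and Cd14, Fcgr1, Cd163 and Spic were under both levels. The part of such cells in the NK values was not tested.

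Erythroid markers were higher for 4 of 18, with sums of 2287 and 10319. Hbb-b1, a globin of adult hemoglobin, read 252 and 2083, 8.28-fold higher, and Hba-a2 and Hba-a1 read 462 and 3094 and 597 and 3247. Hbb-b1, Hba-a2 and Hba-a1 were above the level in B cells too, whereas the globin gene Hbb-b2 read 61.0 and 171 and was not called. The erythroid factors Gata1 and Klf1 and the enzyme Alas2 were under both levels. T cell markers were higher for 3 of 19, with sums of 1629 and 5617. The 3 were Thy1 (222 and 2260.3), Tcf7 and Cd3e (200 and 534), while Cd4, Cd8a, Cd5, Cd28 and Cd3d were among 13 genes under both levels. Lck, Zap70 and Tcf7 are shared by T and NK cells, and what T cells add to their values was not tested.

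No platelet gene of 10 was above either level, and none of 16 neutrophil, 9 basophil and mast cell or 9 innate lymphoid cell 1 markers was called. Of 12 dendritic cell markers Itgax was higher and Ccr7 lower. Of 16 stem and progenitor markers 13 were under both levels, among them Kit, Cd34, Procr and Mecom, and Ly6a was the only one called. Most genes of the array were under both levels, as 7094 of 24203 were measured, so 13 of 16 is not particular to these markers. The NK and B cell markers separated by title. What the LT-HSC wording of the labels means for these samples was not tested. Of plasma cell markers Irf4 (330.02 and 147) and Mzb1 (359 and 56.5) were lower in NK, of which Irf4 was not called with equal medians and neither at the 99th percentile level, and Jchain was under both levels. Of stromal and endothelial markers Pecam1, which leukocytes also carry, was lower (1289.5 and 552).

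Promoter composition was compared last, over 16260 genes with a window. Windows with under 5 CpG made up 35.2% of 71 genes at least 4-fold higher in NK, 32.4% of 74 genes at least 4-fold lower, 12.3% of 3922 measured genes within 2-fold and 30.3% of 11591 genes under both levels. The median number of CpG was 7, 8, 20 and 11 in the same order. Windows without any CpG made up 2.82%, 1.35%, 1.53% and 4.87%. Of the genes called at 2-fold, windows with under 5 CpG made up 26.8% of 343 higher and 14.85% of 404 lower ones. The CpG-poor share of the lower genes thus depends on the fold threshold. The RUNX match stood in 11.3% of the windows at least 4-fold higher, in 6.76% of those lower and in 3.52% of the measured genes within 2-fold, beside 5.37% of all 27025 windows in the table. The ETS match stood in 18.3% and 20.3% of the higher and lower windows and in 9.97% of those within 2-fold, beside 9.57% of all. The AP-1 match stood in 11.3% and 5.41%, and in 5.25% of those within 2-fold, beside 7.93% of all. The octamer core stood in 4.23% and 6.76%, and in 2.98% within 2-fold, beside 3.98% of all. The T-box match stood in 4.23% and 5.41%, and in 4.64% within 2-fold, beside 5.86% of all. The EBF half-sites stood in 26.8% of the higher and 13.5% of the lower windows and in 16.98% within 2-fold, beside 13.4% of all. The E-box stood in 15.5% of higher and 22.97% of lower windows and in 16.5% within 2-fold, beside 20.03% of all. At the 2-fold call the higher and lower shares were 6.71% and 2.97% for RUNX, 13.1% and 14.6% for ETS, and 7.87% and 6.68% for AP-1. They were 3.79% and 4.21% for the octamer core and 4.08% and 5.20% for the T-box. EBF half-sites stood in 19.2% and 17.6%, and the E-box in 18.4% and 17.1%. The counts at 4-fold are small, 8 windows each for RUNX and AP-1 among the higher genes, and no test was made.

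**Figure D5:**
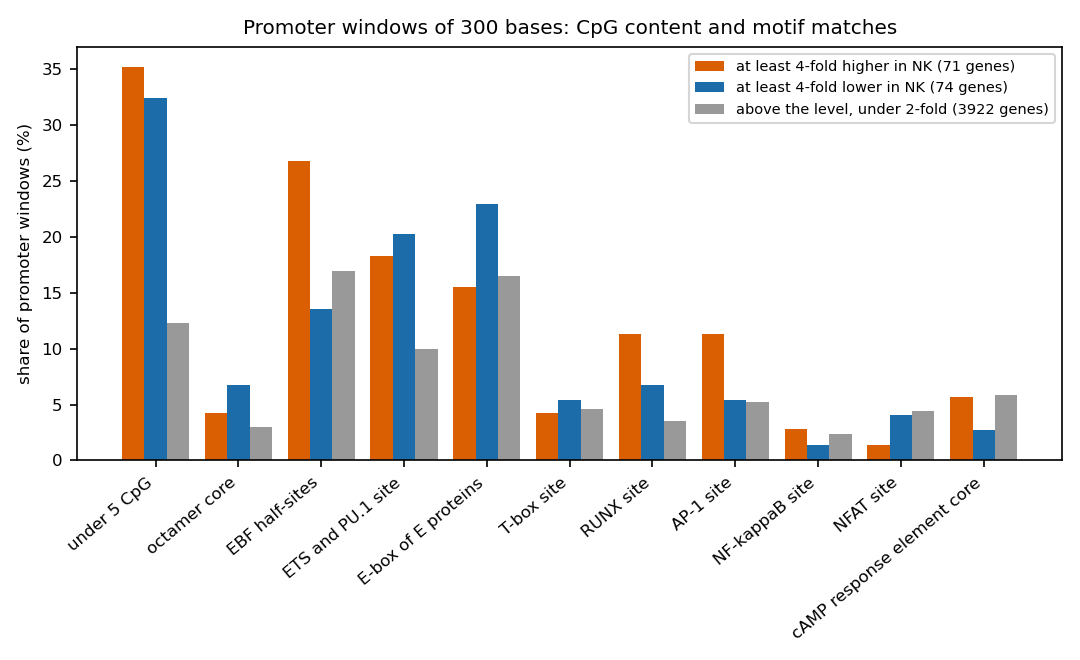
Share of promoter windows, in percent, with under 5 CpG and with a letter match to each of 10 motifs, for 71 genes at least 4-fold higher in NK (orange), 74 at least 4-fold lower (blue) and 3922 measured genes within 2-fold (grey). Windows poor in CpG make up 35.2% and 32.4% of the genes at least 4-fold higher and lower and 12.3% of the grey ones. For all genes called at 2-fold, not drawn here, the shares are 26.8% and 14.85%.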

How the data were processed

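Per the labels, total RNA of sorted spleen cells was turned into double-strand cDNA with oligo dT primers, labelled with Cy3 and hybridised to NimbleGen arrays, 1 per population. The authors deposited 1 intensity per transcript, and the submitters' processing notes name RMA as the tool, without a version. Per the file headers, 44155 of 44170 transcripts have 3 probes and coordinates are on MM9. A series table holds the same deposited intensity values on a linear scale (largest difference 0). The transcripts without a gene name (2284) stayed out of the contrast. From there, Python 3.11.15 with pandas 2.3.3 and numpy 2.4.6 was used. Transcripts of a gene name were averaged on the log2 scale, and 3270 symbols were updated by gene identifier (21583 of 24203 matched). Genes and the 40 lists were chosen with earlier results of these data known. Genes named are the 20 largest and 20 smallest differences, the 3 largest and 3 smallest of each list, pair members, the 15 brightest shared genes and genes of the leading 1-Mb windows, leaving out predicted and clone names; other list members were named after their values were seen. A few genes that the rule would name are not reported here. The steps were tested on simulated data. Alternatives changed the level, scaling, averaging, names and fold. RMA had already brought the arrays to like quartiles, which can hide a difference in total RNA.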

Additional observations from a re-analysis of the deposited data

Results flagged for a closer look

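Transcripts without a gene name lie outside the comparison, and some carried signal. Of 156 annotated as T cell receptor, 63 were above the NK level and 20 above the B level, and 25 were higher in NK and none lower. Cd3e was higher on the NK array while Cd3d, Cd4 and Cd8a were under both levels. Of 19 annotated as immunoglobulin, 8 were above the NK level and 11 above the B level, and 7 were lower in NK and none higher. Over all 2284 such transcripts, 65 were higher (2.85%) and 78 lower (3.42%). What gave rise to the signal was not tested.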

How the results depend on the processing

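Against 534 higher and 687 lower genes, a level at the 99th percentile of the receptor genes gave 171 and 269, no level 2011 and 1946, a 4-fold threshold 126 and 123, and the brightest transcript of each gene 859 higher and 981 lower. The higher of both levels on both arrays (534 and 648), current gene names (537 and 717) and every transcript passing (439 and 561) stayed within 1.5 times. For 2 of these that was partly fixed in advance. The B level was already the higher one, so the 534 could not change. Requiring every transcript could not remove a gene with 1 transcript. Among called genes with several, it kept 55 of 150 higher and 103 of 229 lower. The NK markers higher numbered 13 at the 99th percentile and 14 at 4-fold, otherwise 19 to 22, and the B markers lower 15 to 22. Of 181 called genes checked, 5 changed sign: with the brightest transcript Fcrla read 0.52 and Ccr6 1.04 on the log2 scale, and at the 99th percentile, where both arrays fell to or near their levels, Adgre1 read -0.085, Serpinb9 -0.076 and Rab27a -0.079, which is the offset between the levels or near it. Of 1241 recomputed values of those genes 1035 stayed close and 201 moved in size. Of 171 list counts 26 moved by over 1.5 times. No paired analysis was possible because each population has 1 array, and no array could be left out. Genes under about 150 on both arrays have no order, and each fold compares those arrays and not the conditions.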

Other observations

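Transcripts of the same gene sometimes disagreed. For 22 genes, at least 1 transcript was called higher and another lower in NK. Pafah1b3, a subunit of a lipid hydrolase, read 49.9 in B and 980.1 in NK on 1 transcript and 496 and 46.3 on the other. Rpl21, a ribosomal protein gene, read 505 and 1848 on 1 transcript and 2666 and 1017 on the other. Immt, an organiser of mitochondrial cristae, read 721 and 329 on 1 and 325 and 3627 on the other, and Dnajb12, a membrane chaperone, read 167 and 390 on 1 and 1678 and 177 on the other. Of genes with several transcripts, every transcript passed in 55 of the 150 called higher and 103 of the 229 called lower. The pooled standard deviation between transcripts of a gene was 0.78 on the log2 scale, against 0.68 for the differences of the receptor genes. Sval2, named for seminal vesicle antigens, stood among the 20 lowest at 4177 and 34.7 on 1 transcript, as did the muscle kinase gene Srpk3 at 2125 and 95.8.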
